A study of Mus musculus with 2 samples.

Results

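The cells described here are basophil and mast cell progenitors of mouse bone marrow, selected on measured RNA levels from droplet single-cell sequencing of sorted Lin- Kit+ cells. The sort keeps progenitors: cells without surface markers of mature lineages (Lin-) and with Kit, the stem cell factor receptor. A cell was chosen by its level of Cpa3, Ms4a2 and Fcer1a, which had to reach 5 UMIs per 10000 UMIs of the cell (CP10k) when summed and to rest on at least 2 UMIs. A UMI is a molecular barcode, counted once per captured transcript. Cells with 5 CP10k or more of the erythroid gene Car1 (Car1-positive cells below), or with 10 CP10k or more of 5 megakaryocyte genes summed (Pf4, Itga2b, Cavin2, Treml1 and Rab27b), were left out. This gave 496 of 11416 kept cells. They were 265 of 5781 cells in the library from mice with a GATA-1 2RA mutation Knockin (KI) and 231 of 5635 cells in the library from wild-type (WT) mice.

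The study compared GATA-1 mutant and wild-type marrow with 1 library per genotype. The labels used here do not give the age, sex or strain of the mice, the number of animals pooled, or the residues that the 2RA mutation changes. With 1 library on each side no difference has a replicate check and no test is possible. All 95% intervals below cover counting error only, and the animal, the sort and the library cannot be told apart from the genotype.

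Basophils and mast cells are granulocytes that carry the high-affinity IgE receptor and release histamine, lipid mediators and proteases when it is crosslinked. In mouse marrow they arise from Gata2-positive progenitors that also give rise to eosinophils. GATA-1 and GATA-2 are zinc-finger transcription factors that bind WGATAR motifs, and basophil, mast cell and eosinophil genes are among their known targets. Ms4a2 and Fcer1a encode the beta and alpha chains of the IgE receptor. Cpa3 encodes carboxypeptidase A3, a granule protease made from early stages of the mast cell and basophil lineage.

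The promoter windows of 4 genes are shown because the results turn on them. Cpa3 and Ms4a2 chose the cells and had like levels in the selected cells of both libraries. Mcpt8 and Prss34 are the basophil protease genes that were lower in KI cells. Each window runs from 250 bases before to 50 bases after the RefSeq transcription start on the gene's strand (GRCm38.p6, which is mm10). Capitals mark a WGATAR word (the word AGATAA, the word AGATAG, the word TGATAA or the word TGATAG), searched on both strands. The windows are chr3:20242132-20242431 on the minus strand for Cpa3, chr19:11623670-11623969 on the minus strand for Ms4a2, chr14:56085148-56085447 on the minus strand for Mcpt8 and chr17:25298144-25298443 on the plus strand for Prss34.
Cpa3: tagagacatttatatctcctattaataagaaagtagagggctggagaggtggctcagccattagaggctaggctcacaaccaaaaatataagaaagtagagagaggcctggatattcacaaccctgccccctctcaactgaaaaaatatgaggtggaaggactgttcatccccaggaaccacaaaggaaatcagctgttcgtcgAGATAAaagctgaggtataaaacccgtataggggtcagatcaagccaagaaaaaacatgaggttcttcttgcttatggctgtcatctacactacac
Ms4a2: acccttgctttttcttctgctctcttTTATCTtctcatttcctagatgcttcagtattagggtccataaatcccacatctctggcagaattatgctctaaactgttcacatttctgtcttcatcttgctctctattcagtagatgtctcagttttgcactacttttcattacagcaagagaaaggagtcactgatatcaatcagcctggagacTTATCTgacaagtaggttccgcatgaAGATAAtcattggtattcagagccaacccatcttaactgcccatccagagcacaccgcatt
Mcpt8: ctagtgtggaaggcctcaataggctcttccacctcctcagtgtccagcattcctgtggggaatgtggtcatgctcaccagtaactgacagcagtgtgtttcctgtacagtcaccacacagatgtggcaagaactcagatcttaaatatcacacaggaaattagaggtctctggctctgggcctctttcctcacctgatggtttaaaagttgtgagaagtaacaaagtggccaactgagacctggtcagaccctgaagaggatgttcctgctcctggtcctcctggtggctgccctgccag
Prss34: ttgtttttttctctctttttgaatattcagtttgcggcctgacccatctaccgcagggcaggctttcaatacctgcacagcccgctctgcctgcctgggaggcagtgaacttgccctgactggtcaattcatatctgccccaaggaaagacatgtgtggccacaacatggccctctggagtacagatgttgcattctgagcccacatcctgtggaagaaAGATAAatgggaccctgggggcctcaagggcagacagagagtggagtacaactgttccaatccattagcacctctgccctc
The Ms4a2 window held 3 such words, the Cpa3 and Prss34 windows held 1 each and the Mcpt8 window held 0. In the GENCODE gene annotation Mcpt8 starts at chr14:56085273, upstream of the RefSeq start used here. The other windows use a start that both sources share, so the Mcpt8 window reaches less far upstream of the GENCODE start. The word starts 46 bases before the start site in Cpa3 and 31 bases before it in Prss34. Of 32851 mouse promoter windows of this length, 29.8% held at least 1 word. These matches describe the letters of the window and do not show binding.

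The selected cells were shallower in KI, with a median of 4440 UMIs and 1736 genes per cell, against 6470 UMIs and 2224 genes in WT. The other kept cells differed in the same way, with medians of 5548 UMIs in KI and 10068 in WT. In all, the selected cells held 1361828 UMIs in KI and 1673919 in WT. Of the deposited barcodes, 11.4% in KI and 23.0% in WT exceeded the limit of 10% mitochondrial UMIs, and 10 barcodes occurred in both libraries, none of them a selected cell. The automatic doublet call marked no selected cell in KI and 2 in WT. The top 5% of doublet scores held 15 selected cells in KI and 5 in WT.

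The selected cells made up 4.58% of kept cells in KI (4.06 to 5.16) and 4.10% in WT (3.60 to 4.65). The log2 ratio of these shares was 0.16 (-0.10 to 0.42), an interval that includes no difference. Of the cells below the Car1 limit alone, they were 8.69% in KI (7.72 to 9.75) and 6.90% in WT (6.06 to 7.81), a log2 ratio of 0.33 (0.07 to 0.59). The direction was the same with both denominators, and the second interval excludes no difference. The summed level of the 3 chosen genes had a median of 9.83 CP10k in KI and 10.1 CP10k in WT. The range was 5.02 to 59.0 CP10k in KI and 5.05 to 94.1 CP10k in WT. Between 5 and 6 CP10k, just inside the limit, lay 40 KI and 24 WT cells, and between 4 and 5 CP10k, just outside it, 35 KI and 38 WT cells. The need for 2 UMIs kept out 34 KI cells and 5 WT cells that reached the level with 1 UMI. Asking for 4 UMIs turned the log2 ratio of shares to -0.14.

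The cells fell into a group with IgE receptor RNA and a group known by Cpa3 alone. At least 1 UMI of Ms4a2 or Fcer1a was found in 125 of 265 KI cells (47.2%, 41.0 to 53.4) and in 115 of 231 WT cells (49.8%, 43.2 to 56.4). Cpa3 without either receptor chain was found in 140 KI cells and 116 WT cells. All 3 genes were found together in 17 KI cells and 11 WT cells. The marker that did not choose the cells, Gata2, had a UMI in 68.7% of KI cells and 72.7% of WT cells. Among the deeper Car1-positive cells, 65.0% in KI and 48.9% in WT also had one. Gata2 stood at 322 CPM in the selected cells against 122 CPM in the other cells of the KI library, and at 289 against 55.4 CPM in the WT library, where CPM is a gene's UMIs per 1000000 UMIs of the summed cells. Most listed mast cell genes were not detected, though the chymase gene Cma1 had 9 UMIs in KI and 13 UMIs in WT. Tpsb2, Tpsab1, Mcpt4, Mrgprb2 and 8 other genes of a 17-gene mast cell list had 0 UMIs in both libraries. The exact 95% interval of such a count of 0, as for Tpsb2, ends at 2.71 CPM in KI and 2.20 CPM in WT. Of the 4 markers, Cpa3, Ms4a2 and Fcer1a were fixed by the rule, so Gata2 alone bears on the label. Since many Car1-positive cells held Gata2 too, it is not particular to the selected cells. About as many cells lacked a receptor chain UMI as held one. Granulocyte genes did not run 1 way against the other cells, which hold all Car1-positive cells. Mpo was higher in the selected cells, at 2206 against 1015 CPM in KI and 3404 against 2173 CPM in WT. Elane was lower in them, at 493 against 883 CPM in KI and 1441 against 2402 CPM in WT. Ctsg was higher in both libraries, and Prtn3 was higher in KI and lower in WT. Whether the cells known by Cpa3 alone include cells on a granulocyte path was not tested.

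**Figure D1:**
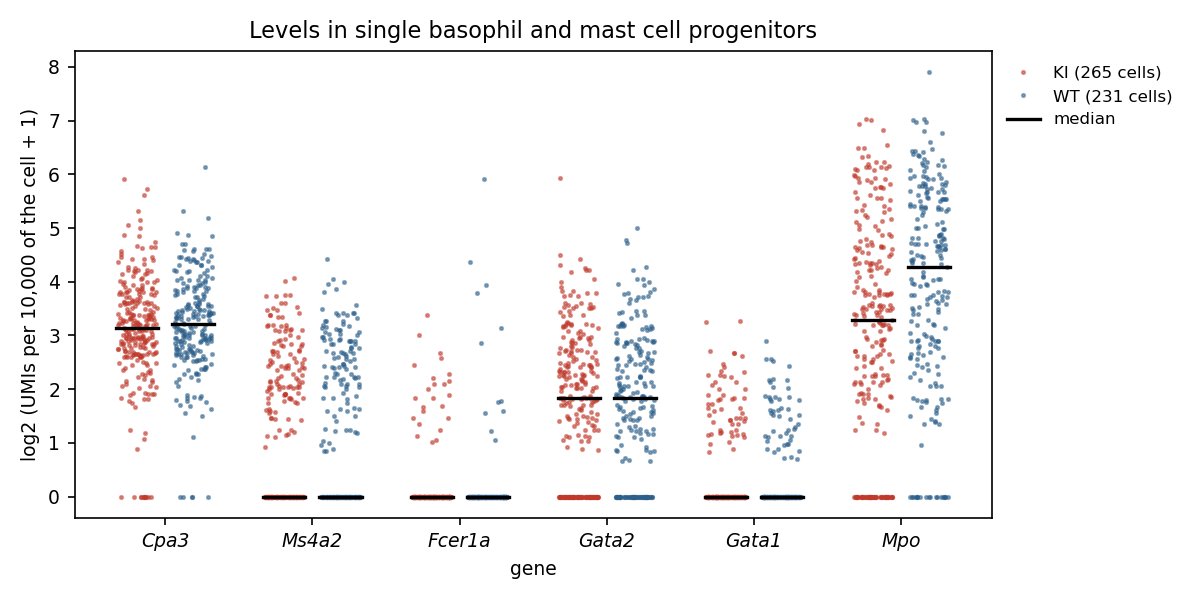
Level of 6 genes in each of 265 KI and 231 WT progenitors, as log2 of CP10k plus 1, with the median as a black bar. Cpa3, Ms4a2 and Fcer1a chose the cells; Gata2 and Gata1 cover like ranges in both libraries, and the median of Mpo is 8.73 CP10k in KI and 18.5 CP10k in WT.

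Among the selected cells, the genes that chose them had like levels in both libraries, which the rule favours, so these are a description. Cpa3 stood at 899 CPM in KI and 939 CPM in WT. Ms4a2 stood at 234 CPM in KI and 239 CPM in WT. Fcer1a was sparse, with 38 UMIs in KI (27.9 CPM) and 41 UMIs in WT (24.5 CPM). The low levels of Car1 (45.5 CPM in KI and 48.4 CPM in WT) and of Pf4 (14.0 CPM in KI and 9.56 CPM in WT) follow from the limits. Itga2b, the CD41 chain and a gene of the same limit, was higher in the selected cells than in the others, at 87.4 against 19.3 CPM in KI and 62.7 against 16.8 CPM in WT. Its log2 ratio of KI over WT was 0.48 (0.09 to 0.87).

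Other genes had a higher summed level in these cells than in the other cells within both libraries. The 15 genes with the highest ratio over the other cells, taken in whichever library gave the lower ratio, were Prss34, Prg2, Gzmb, Fam129a, Mcpt8, Fgf3, Prg3, Lpcat2, 4930519L02Rik, Hdc, Auts2, Lmo4, Padi2, Hgf and Scin. Since the cells were chosen on genes that vary with these, the ratios carry no test. Some of the ratios rest on few cells. Prg2 had a UMI in 3 KI and 10 WT cells, Prg3 in 5 KI and 11 WT cells, and Prss34 in 11 KI and 26 WT cells. Lmo4 had one in 199 KI and 182 WT cells. Gzmb, a granzyme also made by mouse mast cells, stood at 72.7 CPM in KI cells and 82.4 CPM in WT cells, while the other cells held 2.81 CPM in KI and 0.89 CPM in WT. Hgf, which encodes hepatocyte growth factor, stood at 36.0 CPM in KI cells and 40.0 CPM in WT cells, against 5.23 CPM in the other KI cells and 4.52 CPM in the other WT cells. Lmo4, a LIM-domain transcription cofactor, stood at 969 CPM in KI cells and 732 CPM in WT cells, against 101 CPM in the other KI cells and 53.5 CPM in the other WT cells. The ranking requires a high ratio in both libraries, so it does not show that the genotypes share these genes.

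Cells with and without IgE receptor RNA differed in the same direction in both libraries for the genes given here. The split uses genes of the rule, so its values are a description. Other genes ran in opposite directions, among them Prg2 and Zfp704. The log2 ratio of cells with over cells without was -4.79 in KI and 3.35 in WT for Prg2, and -0.65 in KI and 0.75 in WT for Zfp704. For Prg2 the direction rests on few cells. In KI 1 cell without receptor RNA held 56 of the 58 UMIs, and in WT 3 cells with it held 1710 of the 1882 UMIs. Ifitm1, an interferon-induced membrane protein gene that is high in basophils, stood at 1629 CPM in KI cells with receptor RNA and 425 CPM in KI cells without it. In WT it stood at 1558 CPM with and 416 CPM without. Lmo4 stood at 1592 CPM with and 351 CPM without in KI, and at 1120 CPM with and 348 CPM without in WT. Gata2 was also higher beside receptor RNA, at 425 CPM with and 219 CPM without in KI, and 393 CPM with and 185 CPM without in WT. Gata1 followed with 73.8 CPM with and 35.1 CPM without in KI, and 59.9 CPM with and 20.2 CPM without in WT. Itgb7, the integrin beta 7 chain used to recognise basophil and mast cell progenitors, stood at 54.6 CPM with and 13.2 CPM without in KI, and 49.1 CPM with and 20.2 CPM without in WT.

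The neutrophil and monocyte genes given here and Cd34 ran the other way. Not all genes of early progenitors did. Sox4, a progenitor transcription factor, stood at 941 CPM with and 608 CPM without receptor RNA in KI. In WT it stood at 503 CPM with and 455 CPM without, a ratio whose interval includes no difference. For Kit the log2 ratio was 0.09 in KI and -0.32 in WT, and both intervals include no difference. Mpo, the myeloperoxidase of primary granules, stood at 1343 CPM with and 3061 CPM without receptor RNA in KI, and at 2576 CPM with and 4227 CPM without in WT. Elane, neutrophil elastase, stood at 238 CPM with and 747 CPM without in KI, and 945 CPM with and 1934 CPM without in WT. Cd34, a progenitor surface sialomucin, stood at 170 CPM with and 346 CPM without in KI, and 119 CPM with and 269 CPM without in WT. The cells without detected receptor RNA therefore held more granulocyte and Cd34 RNA in each library. The proliferation gene Mki67 was higher with receptor RNA in KI (308 against 139 CPM) and in WT (206 against 152 CPM). Depth moved with this split in KI, with a median of 4914 UMIs with and 4084 UMIs without, but not in WT, with 6381 UMIs with and 6551 UMIs without. A cell without a UMI may still make receptor RNA, and the part of depth in the split was not tested.

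**Figure D2:**
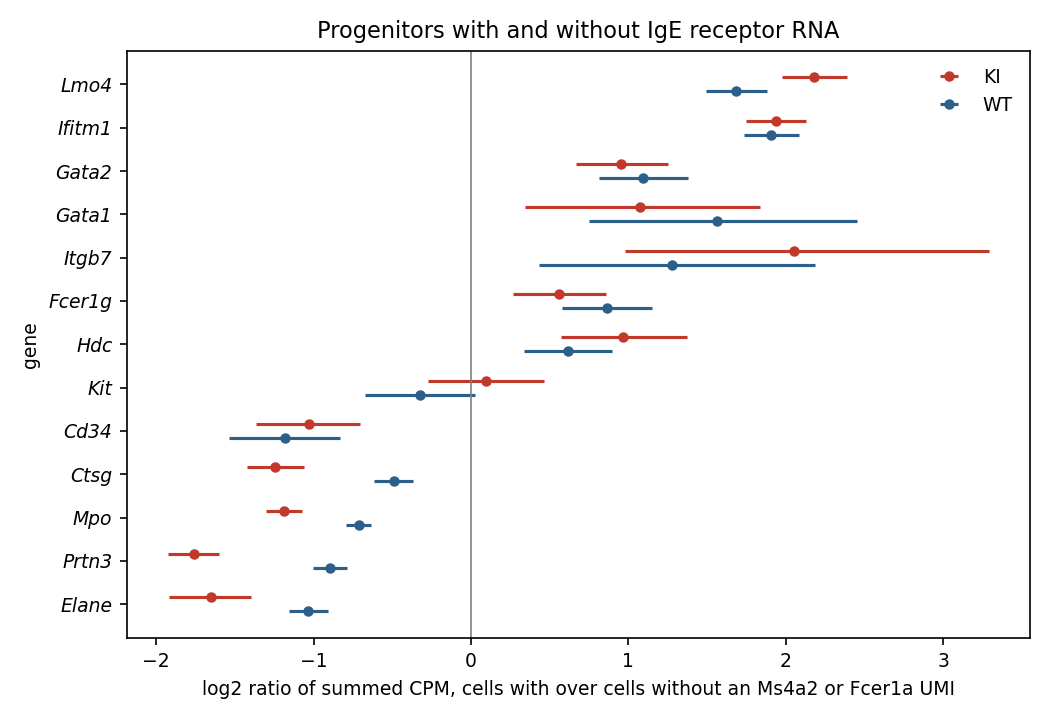
Log2 ratio of summed CPM in progenitors with over those without an Ms4a2 or Fcer1a UMI, for 13 genes, with KI above WT and lines for 95% counting intervals. Lmo4, Ifitm1, Gata2 and Gata1 lie to the right of 0 in both libraries, and Cd34, Ctsg, Mpo, Prtn3 and Elane to the left.

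Between genotypes, most genes of these cells had like levels. Of 6244 genes with at least 50 UMIs over both libraries, 54 were at least 2-fold higher in KI (0.865%) and 93 at least 2-fold lower (1.49%). The median log2 ratio over all of them was 0.04, with quartiles of -0.18 and 0.27. The lower side held the basophil granule proteases, the eosinophil granule genes Prg2 and Prg3, Elane and Apoe, and these were also lower in KI among the other cells. Receptor chain genes of the beta-common family, Ifi203, Ncf4 and Zfp704 were on the higher side. These counts move with the gene minimum and are sizes, not tests. Their shares of all genes are the background for the list counts below.

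**Figure D3:**
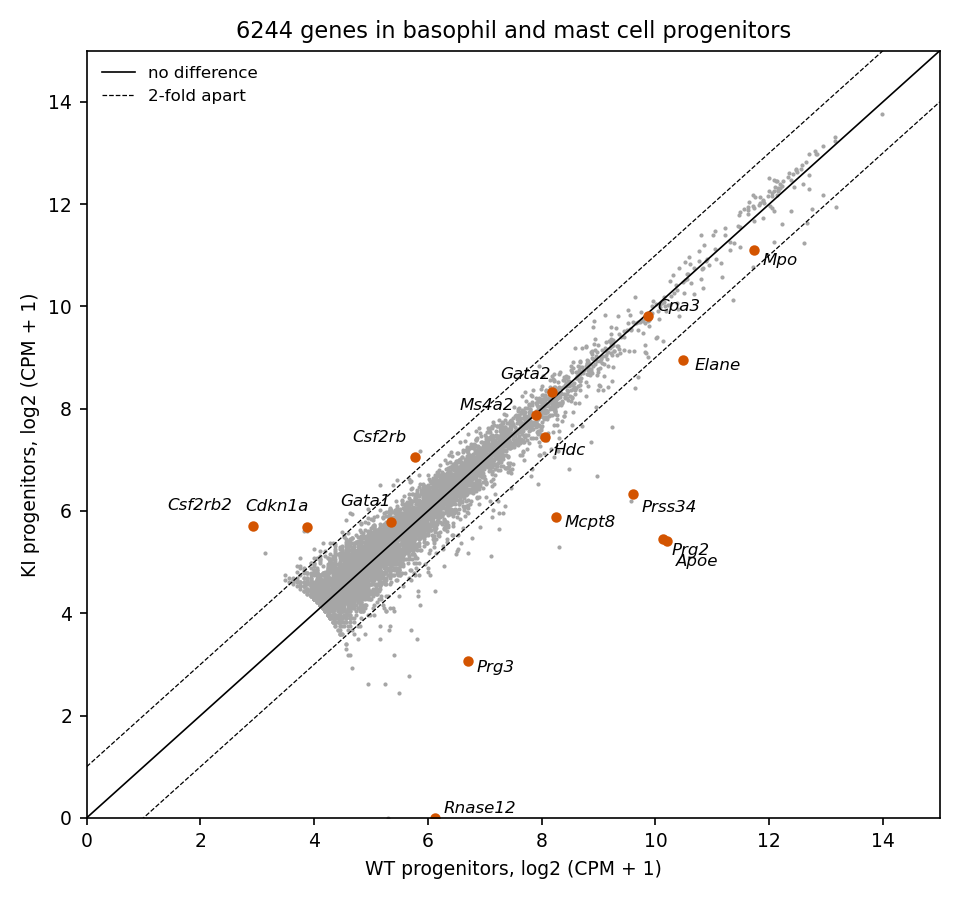
Levels of 6244 genes summed over KI progenitors (vertical) and WT progenitors (horizontal), as log2 of CPM plus 1, with dashed lines at a 2-fold difference. Cpa3, Ms4a2, Gata2 and Gata1 lie inside the dashed lines, while Prg2, Prss34, Mcpt8, Prg3, Apoe and Rnase12 lie below and Csf2rb, Csf2rb2 and Cdkn1a above.

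Gata2, needed for basophil and mast cell development, stood at 322 CPM in KI cells (292 to 353) and 289 CPM in WT cells (263 to 315), a log2 ratio of 0.16 (-0.03 to 0.35). Per cell its median was 2.55 CP10k in KI and 2.56 CP10k in WT. Gata1, the gene that carries the mutation, had 74 UMIs in KI cells (54.3 CPM) and 67 UMIs in WT cells (40.0 CPM), a log2 ratio of 0.44 (-0.06 to 0.94). Its RNA level says nothing of the mutant protein, and the mutation cannot be read from these counts. After each cell was thinned to 4000 UMIs, which left out 114 KI and 46 WT cells, 57.0% of KI cells (48.7 to 65.0) and 56.8% of WT cells (49.3 to 64.0) had a Gata2 UMI. Of the thinned Car1-positive cells, 34.5% in KI and 21.5% in WT had one.

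Of 28 factors listed, 23 reached the minimum, and 0 were at least 2-fold higher and 1 at least 2-fold lower in KI, with a median log2 ratio of 0.15. The exception was Cebpe, a factor of late granulocyte and eosinophil maturation, with 98 UMIs in KI (72.0 CPM) and 249 UMIs in WT (149 CPM), a log2 ratio of -1.05 (-1.40 to -0.70). When the rule was applied anew to thinned cells, this ratio was -0.00. Lmo4 was higher in KI with a log2 ratio of 0.40 (0.29 to 0.52), which turned to -0.13 with granulocyte-gene cells (10 CP10k or more of Mpo, Elane, Prtn3 and Ctsg summed) left out. Also higher were Myb, a progenitor factor, with 593 CPM in KI and 436 CPM in WT, and Zfpm1, which encodes the GATA partner FOG-1, with 94.0 CPM in KI and 50.2 CPM in WT. Among the other cells, Zfpm1 stood at 170 CPM in KI and 104 CPM in WT, and Myb at 504 CPM in KI and 333 CPM in WT. Cebpa, Ikzf2, Runx1 and Stat5a had log2 ratios from 0.04 to 0.21. Beside the 0.865% of all genes that were 2-fold higher and the 1.49% that were 2-fold lower, the counts of 0 and 1 factors are near the background.

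Of 17 listed genes for IgE receptor signalling 15 reached the minimum, 0 were at least 2-fold apart, and the median log2 ratio was 0.06, beside 0.04 over all genes. With so few of all genes 2-fold apart, the count of 0 is near the background. Fcer1g, the shared gamma chain of the receptor, stood at 293 CPM in KI and 266 CPM in WT, a log2 ratio of 0.14 (-0.06 to 0.34). Lat2, an adaptor downstream of the receptor, stood at 97.7 CPM in KI and 86.0 CPM in WT. Syk, the kinase that binds the gamma chain, stood at 85.9 CPM in KI and 59.1 CPM in WT, with a log2 ratio of 0.54 (0.14 to 0.94). Cd63, a granule membrane protein exposed on activated basophils, was lower in KI at 560 CPM against 743 CPM in WT, a log2 ratio of -0.41 (-0.54 to -0.28).

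Receptor genes for growth factors included some that were at least 2-fold higher in KI. Csf2rb encodes the beta chain shared by the receptors for IL-3, IL-5 and GM-CSF, cytokines that drive basophil and eosinophil growth. It had 179 UMIs in KI cells (131 CPM, 113 to 152) and 90 UMIs in WT cells (53.8 CPM, 43.2 to 66.1), a log2 ratio of 1.29 (0.92 to 1.67). After thinning, 35.8% of KI cells (28.1 to 44.0) and 18.9% of WT cells (13.5 to 25.3) had a Csf2rb UMI. Of the Car1-positive cells, thinned in the same way, 0.568% in KI and 0.851% in WT had one. Before thinning, the median depth of the Car1-positive cells was 8746 UMIs in KI and 16221 UMIs in WT. When the rule was instead applied anew to cells thinned to 4000 UMIs, which chose 179 KI and 206 WT cells, the log2 ratio of CPM was 0.87, under 2-fold. Among the other cells Csf2rb stood at 10.7 CPM in KI and 9.73 CPM in WT.

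Csf2rb2, the IL-3-specific beta chain of the mouse and a near-identical neighbour of Csf2rb on chromosome 15, was named after its values were seen. It had 70 UMIs in KI cells (51.4 CPM) and 11 UMIs in WT cells (6.57 CPM), a log2 ratio of 2.97 (2.04 to 4.03). In the other cells it stood at 2.77 CPM in KI and 0.57 CPM in WT. The 2 genes share much sequence, so reads may be split between them and each value is uncertain. Il3ra, the IL-3-specific alpha chain, stood at 104 CPM in KI and 76.5 CPM in WT, a log2 ratio of 0.44 (0.08 to 0.79). Csf2ra, the GM-CSF receptor alpha chain, stood at 37.4 CPM in KI and 35.8 CPM in WT.

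Of 21 listed receptors 10 reached the minimum, with a median log2 ratio of 0.20. In KI 2 were at least 2-fold higher (Csf2rb and Csf2rb2), against 0.865% of all genes, and 0 at least 2-fold lower, against 1.49%. Kit, the receptor used for the sort, stood at 183 CPM in KI and 167 CPM in WT. Il1rl1, the IL-33 receptor of mast cells and basophils, stood at 40.4 CPM in KI and 35.2 CPM in WT, and Crlf2, a chain of the TSLP receptor, at 124 CPM in KI and 109 CPM in WT. The intervals of these 3 ratios all include no difference. None of 11 measured integrin and homing genes was 2-fold apart, with a median of 0.27 and Itgb7 at 33.8 CPM in KI and 34.6 CPM in WT.

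Basophil granule proteases were lower in the KI cells. Prss34, mast cell protease 11, which basophils of the mouse secrete, had 108 UMIs in KI cells (79.3 CPM, 65.1 to 95.7) and 1307 UMIs in WT cells (781 CPM, 739 to 824), a log2 ratio of -3.30 (-3.60 to -3.02). Mcpt8, a basophil-specific protease of the mouse, had 79 UMIs in KI cells (58.0 CPM) and 507 UMIs in WT cells (303 CPM), a log2 ratio of -2.38 (-2.75 to -2.04). These UMIs sat in few cells, and the ratio intervals do not cover the spread between cells. Both genes belong to protease families, and how reads shared by family members were counted is not given in the sources used here. The 3 cells with the most Prss34 held 96 of the 108 UMIs in KI and 716 of the 1307 UMIs in WT.

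A cell with at least 5 CP10k and 2 UMIs of Mcpt8 plus Prss34 is called a protease cell here. There were 7 in KI (2.64%, 1.07 to 5.37) and 23 in WT (9.96%, 6.42 to 14.6). Their summed protease UMIs had a median of 12.0 and a highest value of 52 in KI, against a median of 23.0 and a highest value of 389 in WT. At least 50 protease UMIs were found in 1 KI cell and 7 WT cells. Among the other cells as a whole, Prss34 had 3 UMIs in KI (0.066 CPM) and 14 UMIs in WT (0.21 CPM), and Mcpt8 stood at 4.41 CPM in KI and 7.34 CPM in WT. Outside the selected cells, 3 of 5516 KI and 7 of 5404 WT cells also met the limit. Of the protease cells, 5 of 7 in KI and 19 of 23 in WT held an Ms4a2 UMI. The difference in Mcpt8 was also seen as a share of cells at equal depth: 5.30% of thinned KI cells (2.31 to 10.2) and 21.1% of thinned WT cells (15.4 to 27.7) had a Mcpt8 UMI, against 0.207% of Car1-positive cells in KI and 0.451% in WT. For Prss34 the thinned shares were 4.64% in KI (1.88 to 9.32) and 7.57% in WT (4.20 to 12.4), and these intervals overlap. With cells rich in basophil, eosinophil or mast granule RNA left out, an alternative chosen after seeing the data, the log2 ratio of Prss34 was -0.47 and that of Mcpt8 -1.95.

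Of 18 basophil genes listed 11 reached the minimum, with a median log2 ratio of -0.18. In KI 0 were at least 2-fold higher, against 0.865% of all genes, and 4 at least 2-fold lower, against 1.49%. Beside both proteases the lower ones were the chemokine genes Ccl4, at 36.0 CPM in KI and 90.2 CPM in WT, and Ccl3, at 15.4 CPM in KI and 37.6 CPM in WT, the last named after its values were seen. Ccl4 had a log2 ratio of -1.33 (-1.82 to -0.85), which was -0.64 without the granule-rich cells. Ifitm1 stood at 1024 CPM in KI and 985 CPM in WT, Cd69, an early activation antigen, at 158 CPM in KI and 138 CPM in WT, and Ccl9 at 132 CPM in KI and 125 CPM in WT. Their ratio intervals include no difference, so the lower level of the proteases was not seen for these 3 genes.

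Genes for histamine and lipid mediators were lower in KI or close. Hdc, which encodes the enzyme that makes histamine, had 235 UMIs in KI cells (173 CPM, 151 to 196) and 444 UMIs in WT cells (265 CPM, 241 to 291), a log2 ratio of -0.62 (-0.85 to -0.39). In the other cells Hdc was lower in KI too, at 14.6 CPM against 26.2 CPM in WT, a log2 ratio of -0.84. After thinning, 42.4% of KI cells (34.4 to 50.7) and 56.2% of WT cells (48.7 to 63.5) had a Hdc UMI, against 1.50% of the Car1-positive cells in KI and 2.05% in WT. Alox5ap, the activating protein of 5-lipoxygenase, stood at 234 CPM in KI and 291 CPM in WT, and in the other cells at 78.5 CPM in KI and 117 CPM in WT. Srgn, the serglycin core protein that binds granule proteases and histamine, stood at 2188 CPM in KI and 2538 CPM in WT. Slc18a2, the vesicular amine transporter, ran the other way with 116 CPM in KI and 104 CPM in WT, a log2 ratio of 0.16 (-0.16 to 0.48). Of 14 mediator genes 8 reached the minimum, 6 had a ratio below 0, 0 were at least 2-fold apart, and the median was -0.47.

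Eosinophil granule RNA was present in a few cells of both libraries, and most of it was in WT. Prg2, which encodes major basic protein, had 58 UMIs in KI cells (42.6 CPM) and 1882 UMIs in WT cells (1124 CPM), a log2 ratio of -4.72. The 3 richest cells held all 58 UMIs in KI and 1710 UMIs in WT. Prg3, its homologue, had 10 UMIs in KI and 173 UMIs in WT. In the other cells Prg2 stood at 0.33 CPM in KI and 2.82 CPM in WT, and Prg3 at 0.59 CPM in KI and 0.92 CPM in WT. These were the 2 of 7 eosinophil granule genes that reached the minimum, and both were at least 2-fold lower in KI, against 1.49% of all genes. Epx, eosinophil peroxidase, had 0 UMIs in KI and 46 UMIs in WT, at least 3.28 lower on the log2 scale by its interval. Of these 46 UMIs, 44 sat in the 3 richest cells, a spread that the interval does not cover. Only 2 cells in KI (0.755%, 0.0915 to 2.70) and 6 in WT (2.60%, 0.959 to 5.57) met the limit of 5 CP10k and 2 UMIs for Prg2, Prg3 and Epx summed, and the intervals overlap. Of the 6 WT cells 3 were also protease cells, and of the 2 KI cells none was, with an exact upper bound of 1.38% of KI cells. Il5ra, the eosinophil receptor, had 1 UMI in KI and 2 UMIs in WT, and Siglecf, the 1 of 4 eosinophil surface genes that reached the minimum, stood at 35.2 CPM in KI and 48.4 CPM in WT.

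Besides Cpa3 and Gzmb, mast cell proteases were almost not detected. Cma1, a mast cell chymase, had 9 UMIs in KI and 13 UMIs in WT. Of these, 8 UMIs in KI sat in 1 cell that also held 11 Mcpt8 UMIs, and in WT 3 cells held 6, 3 and 3 UMIs. Mitf, a mast cell transcription factor, had 8 UMIs in each library. Only Kit and Gzmb of the mast cell list reached the minimum. A difference in mast cell maturity was not detectable at this depth.

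**Figure D4:**
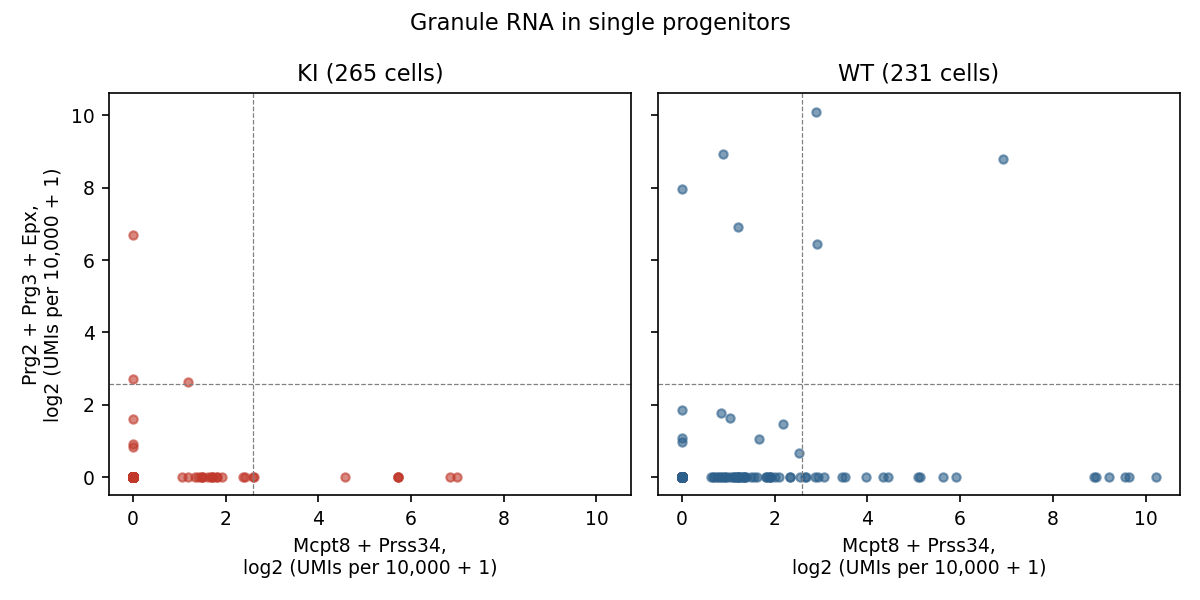
Summed eosinophil granule RNA (Prg2, Prg3 and Epx, vertical) against summed basophil protease RNA (Mcpt8 and Prss34, horizontal) in each progenitor, as log2 of CP10k plus 1, for KI (left) and WT (right), with dashed lines at 5 CP10k. Cells to the right of the vertical line are rarer in KI (7 cells with at least 2 UMIs) than in WT (23 cells), and the highest values are in WT.

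The RNA of other cell types in these cells is given beside the differences above, and its part in them was not tested. Of 18 neutrophil and monocyte genes 8 reached the minimum, all 8 had a lower level in KI, and the median log2 ratio was -0.54. The summed level of this list was 5449 CPM in KI and 8815 CPM in WT in the selected cells, and 3939 CPM in KI and 8929 CPM in WT in the other cells. Per cell it ran from 0 to 332 CP10k in KI and from 2.28 to 597 CP10k in WT. Mpo stood at 2206 CPM in KI and 3404 CPM in WT, and Elane at 493 CPM in KI and 1441 CPM in WT, a log2 ratio of -1.55 (-1.67 to -1.42) that was -0.90 when the rule was applied anew to thinned cells. Among the other cells Elane stood at 883 CPM in KI and 2402 CPM in WT.

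Granulocyte RNA was also counted in Car1-positive cells, and whether those cells make it was not tested. Elane had a UMI in 47.0% of thinned KI cells and 67.0% of thinned WT cells, while 11.0% of Car1-positive cells in KI and 35.3% in WT also had one. Mpo had a UMI in 90.7% of thinned KI cells and 94.6% of thinned WT cells, against 14.9% of the Car1-positive cells in KI and 40.6% in WT. In all, 185 KI cells (69.8%, 63.9 to 75.3) and 206 WT cells (89.2%, 84.4 to 92.9) reached 10 CP10k of Mpo, Elane, Prtn3 and Ctsg. Leaving these cells out left 80 KI and 25 WT cells and gave a log2 ratio of shares of 1.64. The late granule genes Fcnb and Ltf had 0 UMIs in both libraries.

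Erythroid RNA was low beside that of the other cells, which the Car1 limit favours, since the other cells hold all Car1-positive cells. The 19 erythroid genes summed to 599 CPM in KI and 415 CPM in WT, against 5136 CPM in KI and 3502 CPM in WT in the other cells. Per cell the sum ran from 0 to 31.6 CP10k in KI and 0 to 34.6 CP10k in WT, and the anion exchanger Slc4a1 was at 0 in both. Of 7 that reached the minimum, 2 were at least 2-fold higher in KI, against 0.865% of all genes, and the median log2 ratio was 0.37. The 2 were Klf1 and, named after its values were seen, Mfsd2b. Klf1, an erythroid transcription factor, stood at 47.0 CPM in KI and 21.5 CPM in WT, a log2 ratio of 1.13 (0.52 to 1.76) that turned to -0.28 when the rule was applied anew to thinned cells. Among the thinned selected cells, 11.9% in KI and 8.65% in WT had a Klf1 UMI. Hbb-bs, an adult beta-globin gene chosen after its values were seen, had 37 UMIs in KI and 4 UMIs in WT. The share of thinned cells with a Hbb-bs UMI was 8.61% in KI and 1.62% in WT, while 5.06% of Car1-positive cells in KI and 1.70% in WT had one. The Car1-positive cells are erythroid, so their share is no background for globin.

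Megakaryocyte, lymphoid and macrophage markers were sparse. Of 16 megakaryocyte and platelet genes 2 reached the minimum, the list summed to 283 CPM in KI and 207 CPM in WT, and per cell it ran from 0 to 22.7 CP10k in KI and 0 to 15.9 CP10k in WT. Gp6, Tubb1 and Thbs1 were at 0 in both libraries. The 15 lymphoid genes summed to 96.2 CPM in KI and 133 CPM in WT, with per-cell sums up to 11.6 CP10k in KI and 16.2 CP10k in WT, and Ebf1, Pax5, Rag1 and Cd3e were at 0 in both. The 8 macrophage genes summed to 11.7 CPM in KI and 42.4 CPM in WT, with a highest cell at 8.61 CP10k in KI and 35.2 CP10k in WT. None of the macrophage genes reached the minimum.

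Of 16 stem and multipotent genes 11 reached the minimum and 0 were at least 2-fold apart, with a median log2 ratio of 0.07. They summed to 1262 CPM in KI and 1268 CPM in WT. Cd34 stood at 258 CPM in KI and 194 CPM in WT, a log2 ratio of 0.41 (0.19 to 0.63), and Angpt1, the gene of angiopoietin 1, at 213 CPM in KI and 172 CPM in WT, with a log2 ratio of 0.31 that turned to -0.12 with granulocyte-gene cells left out. Ifitm3 was lower in KI, at 215 CPM against 326 CPM in WT, a log2 ratio of -0.60 (-0.81 to -0.39).

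**Figure D5:**
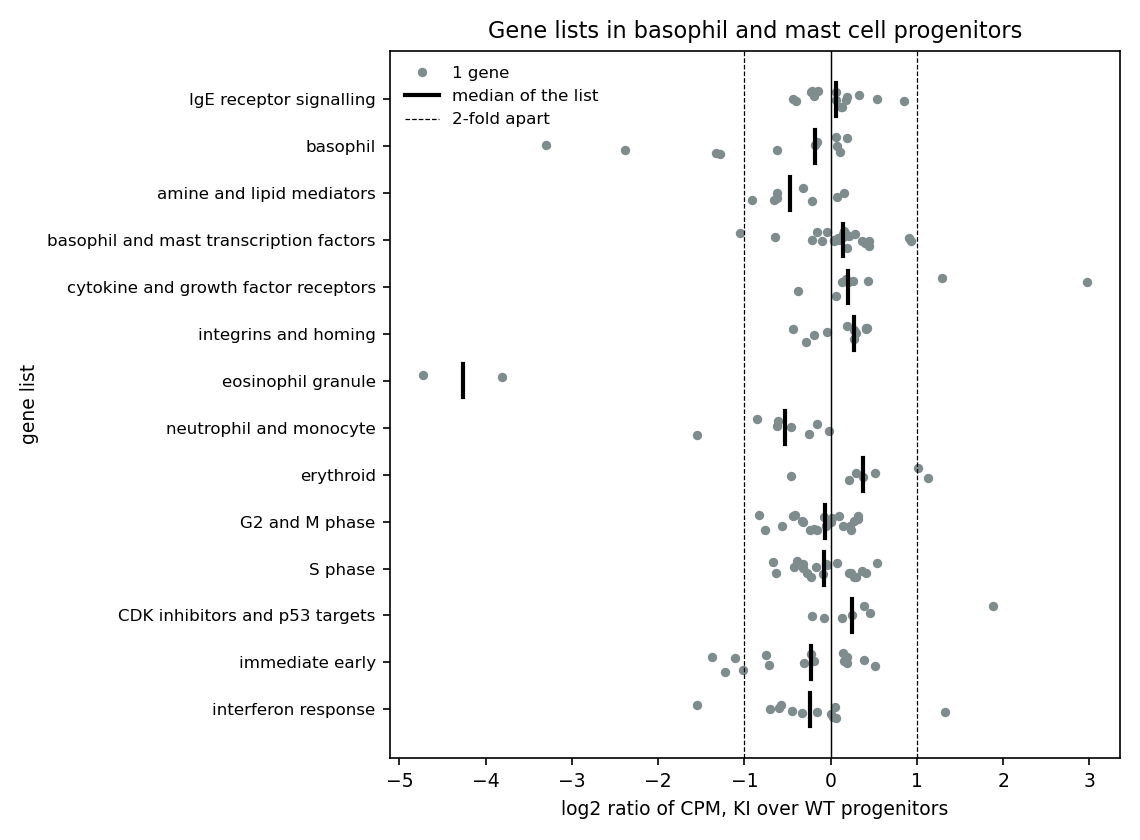
Log2 ratio of CPM, KI over WT progenitors, for each gene with at least 50 UMIs in 14 gene lists, with a bar at the list's median and dashed lines at a 2-fold difference. The medians of most lists lie between -0.6 and 0.4, the 2 eosinophil granule genes at -4.72 and -3.82, and Csf2rb and Csf2rb2 at 1.29 and 2.97.

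All 20 S phase and 22 G2 and M phase genes reached the minimum, 0 were at least 2-fold apart, and both medians were -0.07. Mki67 stood at 223 CPM in KI and 179 CPM in WT, and Top2a, the mitotic topoisomerase, at 326 CPM in KI and 295 CPM in WT. Hmgb2 was lower in KI at 1216 CPM against 1642 CPM in WT, and in the other cells it stood at 1422 CPM in KI and 1951 CPM in WT. Of 15 CDK inhibitors and p53 targets 7 reached the minimum, with a median log2 ratio of 0.25, and 1 was at least 2-fold higher in KI, against 0.865% of all genes. It was Cdkn1a, the CDK inhibitor p21, named after its values were seen, with 69 UMIs in KI (50.7 CPM) and 23 UMIs in WT (13.7 CPM), a log2 ratio of 1.88 (1.18 to 2.63). A Cdkn1a UMI was found in 19.2% of thinned KI cells (13.3 to 26.4) and 5.95% of thinned WT cells, against 1.81% of the Car1-positive cells in KI and 0.601% in WT. Among the other cells Cdkn1a stood at 11.4 CPM in KI and 5.25 CPM in WT. Of 13 survival genes 6 reached the minimum and 0 were 2-fold apart, with a median of -0.01. Bcl2 stood at 77.1 CPM in KI and 46.6 CPM in WT, and Mcl1 at 142 CPM in KI and 202 CPM in WT.

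Several of the genes farthest from no difference on the lower side were also lower in KI among the other cells. Apoe, which encodes a lipid carrier, had 57 UMIs in KI cells (41.9 CPM) and 1970 UMIs in WT cells (1177 CPM), a log2 ratio of -4.81 (-5.22 to -4.43). In the other cells it stood at 21.9 CPM in KI and 312 CPM in WT. Gm10076, Hist1h2ap and Apobec3 had log2 ratios from -3.39 to -2.02 in the selected cells, and each was also lower in KI among the other cells. Apobec3, which encodes a cytidine deaminase that restricts retroviruses, stood at 36.4 CPM in KI and 139 CPM in WT there. The histone gene Hist1h2ap and Gm10076 have near-identical copies elsewhere, which makes their values uncertain. Rnase12, a ribonuclease gene, had 0 UMIs in KI and 115 UMIs in WT, at least 4.64 lower on the log2 scale by its interval, and in the other cells it stood at 0.04 CPM in KI and 0.89 CPM in WT.

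On the higher side, Ifi203, an interferon-inducible gene of a family with near copies, stood at 144 CPM in KI and 57.4 CPM in WT, a log2 ratio of 1.33 (0.97 to 1.70). In the other cells it stood at 82.3 CPM in KI and 43.5 CPM in WT. Ncf4, a subunit of the phagocyte NADPH oxidase, stood at 90.3 CPM in KI and 34.6 CPM in WT, a log2 ratio of 1.38 (0.92 to 1.86). In the other cells it stood at 42.3 CPM in KI and 31.3 CPM in WT. Sox4, a progenitor transcription factor, stood at 774 CPM in KI and 479 CPM in WT, against 314 CPM in the other KI cells and 176 CPM in the other WT cells. Zfp704, Borcs8, Plec, Vamp5, Gmfg and Zfp36l2 had log2 ratios from 0.72 to 1.17 and were higher in KI among the other cells as well.

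Of 20 immediate early genes 15 reached the minimum, with a median log2 ratio of -0.23. In KI 0 were at least 2-fold higher, against 0.865% of all genes. Klf2, Klf6, Dusp1 and Zfp36, 4 in all, were at least 2-fold lower, against 1.49% of all genes. All 4 were also lower in KI among the other cells. Their log2 ratios there were -1.25 for Klf2, -0.39 for Klf6, -0.66 for Dusp1 and -0.93 for Zfp36. Klf6, a zinc-finger factor, stood at 143 CPM in KI and 310 CPM in WT, a log2 ratio of -1.11 (-1.36 to -0.87). Dusp1, a phosphatase that acts on MAP kinases, stood at 112 CPM in KI and 227 CPM in WT, and Fos at 543 CPM in KI and 914 CPM in WT. Of 20 interferon response genes 12 reached the minimum, with Ifi203 at least 2-fold higher and Bst2, tetherin, at least 2-fold lower and a median of -0.24. Bst2 stood at 35.2 CPM in KI and 103 CPM in WT, and at 41.9 CPM in KI and 119 CPM in WT in the other cells. Of 7 MHC class II genes 3 reached the minimum, 0 were 2-fold apart and the median was -0.23, with H2-DMa, a peptide-loading chain, at 129 CPM in KI and 137 CPM in WT.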

How the data were processed

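Lin- Kit+ marrow cells from 1 KI and 1 WT library were measured with a 10x Genomics 3' assay. The authors deposited unnormalized UMI counts for every gene and barcode, and Cell Ranger 3.1.0 is named per the file headers. The genome build was mm10 according to the submitters' processing notes. How barcodes were chosen is not given in the sources used here, and the smallest barcode total was 500 UMIs. Gene positions came from GENCODE M21, which holds 31011 of 31053 gene IDs, and promoter windows from RefSeq (GRCm38.p6).

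Kept barcodes had 500 genes or more, 1000 UMIs or more and no more than 10% mitochondrial UMIs. The members were selected on the counts themselves, and members and gene lists were chosen with earlier results of these data known. Doublets were scored with Scrublet in scanpy 1.11.5 and not removed: the automatic call marked 0.0692% of kept KI cells and 2.59% of kept WT cells, and the KI call is too low to have worked. Free RNA was not removed.

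UMIs were summed over member cells per library and scaled to CPM. Sums have exact Poisson intervals, shares exact Clopper-Pearson intervals and ratios exact conditional binomial intervals (scipy 1.17.1, numpy 2.4.6, pandas 2.3.3), all at 95%. PCR and sampling of animals lie outside them. Those of UMI sums and their ratios treat each UMI as independent, so the spread between cells lies outside them too. A library at 0 was set to 3 UMIs. Genes needed 50 UMIs over both libraries to be counted. With 1 library per genotype no model across samples was fitted. The step was tested on simulated Poisson counts without spread between cells. The intervals assume the same, so that test does not cover UMIs that cluster in few cells.

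Genes named were Gata1, Gata2, the 9 genes of the rule, the 10 in each direction with a ratio interval farthest from 0 on the log2 scale, the 15 highest over other cells, and from each of 25 lists up to 4 with the most UMIs and those at least 2-fold apart. The farthest and 2-fold genes needed 100 UMIs in the higher library, and the ranking left out ribosomal protein and mitochondrial genes as well as Xist, Tsix and Y-linked genes. Part of the genes the rule took is not reported here. Other genes with values, such as Zfpm1, Syk, Il3ra, Csf2ra and Il1rl1, were picked from the lists for their roles after values were seen. Alternatives changed the rule, the depth, the cell filters, the gene minimum and the cells left out.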

Additional observations from a re-analysis of the deposited data

How the results depend on the processing

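The log2 ratio of shares, 0.16, stayed between 0.08 and 0.28 except with 4 UMIs required (-0.14) and with granulocyte-gene cells left out (1.64). The number of genes at least 2-fold higher in KI, 54, was 27 at 10 CP10k, 32 with an Ms4a2 or Fcer1a UMI required, 23 with the rule applied to thinned cells, 33 without granulocyte-gene cells, 183 at a minimum of 20 UMIs and 3 at a minimum of 200. The number at least 2-fold lower, 93, was 34 without granulocyte-gene cells, 223 at a minimum of 20 UMIs and 39 at a minimum of 200. These settings change the number of cells or genes entered. Of single genes, Treml1 was 1.47 and became -0.80 when the rule was applied to thinned cells, and Klf1 was 1.13 and became -0.28; Treml1 rests on 9 UMIs in KI and 4 in WT, and the cause was not tested for Klf1. Smaller ratios whose interval excluded 0 also turned without granulocyte-gene cells: Lmo4 (-0.13), Angpt1 (-0.12), Btg2 (-0.01), Dut (0.57), Mcm6 (0.70), Mcm7 (0.43) and Satb1 (0.74). Applied to thinned cells, the rule turned Car2 (-0.10), Ifngr1 (-0.03) and Mcm7 (0.05), and at 10 CP10k Car2 (-0.11) and Mcm7 (0.10). Of the other gene and list results under these settings, 1652 stayed and 233 moved by more than their counting interval (list medians: by more than 0.25). Centring on the median ratio gave 45 higher and 103 lower genes.

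Leaving out granule-rich cells was chosen after seeing the data. It gave 52 higher and 76 lower genes, and Prg2 then had a log2 ratio of -2.15. No paired analysis was possible because each genotype has 1 library. Depth was lower in KI, and 114 KI and 46 WT cells fall under 4000 UMIs, so shares at equal depth rest on the deeper cells.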
